A study of Mus musculus with 24 samples.

Results

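Livers taken 12 and 24 h after an overdose of acetaminophen (APAP) were compared with livers taken 48 and 72 h after it, to find which genes separate the time of injury from the time of regeneration. The members are libraries, chosen by their labelled time alone: 4 early pools, which are control and LKO at 12 and 24 h, and 4 later pools, which are control and LKO at 48 and 72 h, or 8 of 24 libraries in the series. Each pool is RNA of 3 male mice, so 24 mice of 44 stand behind the comparison, with 1 library for each genotype and time. All of these mice were 2.5 months old, had fasted overnight and had received 300 mg/kg APAP into the peritoneum. All carry loxP-flanked alleles of E2f7 and E2f8 and the R26R mTmG reporter on a mixed, mainly FVB background. LKO mice also carry 1 Alb-Cre transgene, whose albumin promoter drives recombination in the liver lineage from before birth, so that their hepatocytes are mostly diploid, and control mice are littermates without Cre, labelled WT. Livers at 0 h of the same cohort, 4 single mice of each genotype, and the 2 pools at 96 h serve as reference values and enter no main test.

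APAP is turned by P450 enzymes of pericentral hepatocytes into a reactive quinone imine that depletes glutathione and damages mitochondria. Hepatocytes around the central veins die by necrosis within the first day, while surviving cells switch on antioxidant, stress and immediate-early genes. Surviving hepatocytes then enter the cell cycle, monocytes enter the dead areas and mature into macrophages that clear debris, and stellate cells lay down a transient matrix before the tissue returns to its resting state.

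Reads on genes numbered 15742169 to 17629793 in the early and 14939529 to 19499897 in the later pools, and 3 counts, the lowest level taken as detected, were worth 0.157 to 0.198 and 0.145 to 0.2 CPM, where CPM are counts scaled to the size of the library with TMM factors. These floors cover counting error only. Reads on no feature made up 9.36% to 13.6% in the early pools, where the control pool at 12 h was the highest, and 7.29% to 10.5% in the later ones. The labelled tissue was checked on 14 hepatocyte genes, whose summed level was 98580 to 147600 CPM in the early and 133000 to 185600 CPM in the later pools. In whole liver, fewer cells of a type and less RNA per cell cannot be told apart. A phase holds 2 time points, so its spread includes change between them, and the hour of the day of dosing was not given in the sources used here.

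The deleted genes were read in every library, over their whole length, so that transcripts that lack the deleted part are counted too. E2f7, a repressor of cell cycle genes, was at 1.52, 0.426, 1.11 and 4.40 CPM in control and 0.767, 0.261, 1.48 and 1.93 CPM in LKO pools at 12, 24, 48 and 72 h, and at 0.119 to 0.502 CPM in 4 control and 0.167 to 0.233 CPM in 4 LKO livers at 0 h. Its partner E2f8 was at 13.8, 4.20, 4.86 and 7.80 CPM in control and 46.6, 14.8, 21.5 and 16.9 CPM in LKO pools, and at 11.9 to 19.0 and 17.9 to 34.4 CPM at 0 h. E2f8 reads were thus higher in the LKO than in the control pool at each time, which goes against a loss of reads over the whole gene, and the counts do not show whether the floxed exons are absent. Neither gene passed the test between phases (log2 fold change 1.60, SE 0.61, adjusted p = 0.137 for E2f7 and −0.60, SE 0.43, adjusted p = 0.406 for E2f8).

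Between the early and the later pools, 599 of 12915 tested genes (4.64%) changed. A gene was called when its adjusted p lay below 0.05 and the phases differed by 1.5-fold or more, with genotype in the model. The genes that rose included 65 of 72 of G2 and mitosis, among them Mki67, which marks cycling cells, 18 of 43 of DNA replication, 11 of 22 markers of recruited macrophages and 15 of 38 of stellate cells and matrix. Those that fell included 13 of 24 of ribosome biogenesis, 6 of 24 targets of PPARα and 3 of 24 targets of NRF2, among them Srxn1, which repairs oxidised peroxiredoxins. A total of 386 genes (2.99%) were higher and 213 (1.65%) were lower in the later pools, so that 64.4% of the calls were on the higher side. With scaling by library size alone 401 were higher and 124 lower, which put 76.4% of the calls on the higher side. That share was 52.5% with DESeq2 and 51.3% with no filter beyond 1 count. Without single pools it ran from 50.4% (control at 24 h) to 92.8% (LKO at 72 h). It was 47.4% (1403 higher, 1558 lower) without both pools at 24 h. With the 96 h pools counted as later it was 42.8% (664 higher, 887 lower). The median log2 fold change was 2.28 for the higher and −1.35 for the lower genes, against −0.01 for all tested genes. At least 4-fold differences were found for 227 higher and 45 lower genes. The 4 early and 4 later values did not overlap for 340 of the 386 higher and 149 of the 213 lower genes, while among all tested genes 7.07% stood entirely higher and 5.51% entirely lower later. At an unadjusted p under 0.05 there were 3247 genes.

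The count depended on single pools. It was 111 without LKO at 72 h, 134 without control at 72 h, 161 without control at 12 h, 168 without LKO at 12 h and 219 without LKO at 48 h, and it was 1007 without control at 48 h. Without both pools at 72 h 15 genes were called, all of them higher later, without both at 12 h 119, without both at 24 h 2961, and DESeq2 called 1866. Of 78 called genes that the naming rule chose, 23 passed without each single pool: 2810417H13Rik, Aurkb, Birc5, Ccna2, Ccnb1, Cdk1, Cdkn2c, Chaf1a, Ckap2l, Col1a1, Col1a2, Col5a2, E2f1, Loxl2, Mki67, Nop2, Pole, Prc1, Racgap1, Srxn1, Top2a, Tpx2 and Uhrf1. The other 55 were lost without at least 1 pool. The numbers lost were 46 without control at 12 h, 5 without control at 24 h, 43 without LKO at 12 h, 14 without LKO at 24 h, 6 without control at 48 h, 47 without control at 72 h, 42 without LKO at 48 h and 49 without LKO at 72 h.

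The called genes were also set against the livers at 0 h. With a mean change of at least 2-fold taken as a change, 245 of 386 (63.5%) were above 0 h in the later pools only, 74 were below it in the early pools only and back near it later, 20 went from below to above, 14 were above it in both phases, 6 were below it in both and 27 stayed within 2-fold throughout. Of the 213 genes that were lower later, 124 (58.2%) were above 0 h in the early pools only, 63 stayed within 2-fold, 14 were above in both phases, 9 were below in the later pools only, 2 went from above to below and 1 was below in both. With a 1.5-fold change in place of 2-fold the 245 became 193, the 74 became 59 and the 124 became 139, and with a prior count of 0.5 they were 213, 74 and 121. At 96 h, 167 of the 245 and 115 of the 124 were within 2-fold of 0 h. The median change of the 386 genes from 0 h was −0.51, −0.01, 1.55, 2.68 and 0.61 on the log2 scale in control and −0.73, −0.22, 1.42, 1.99 and 0.59 in LKO at 12, 24, 48, 72 and 96 h. That of the 213 genes was 1.87, 1.18, 0.42, −0.11 and −0.18 in control and 1.14, 0.88, −0.24, −0.33 and −0.23 in LKO. These medians were chosen by the comparison itself and describe its genes.

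**Figure D1:**
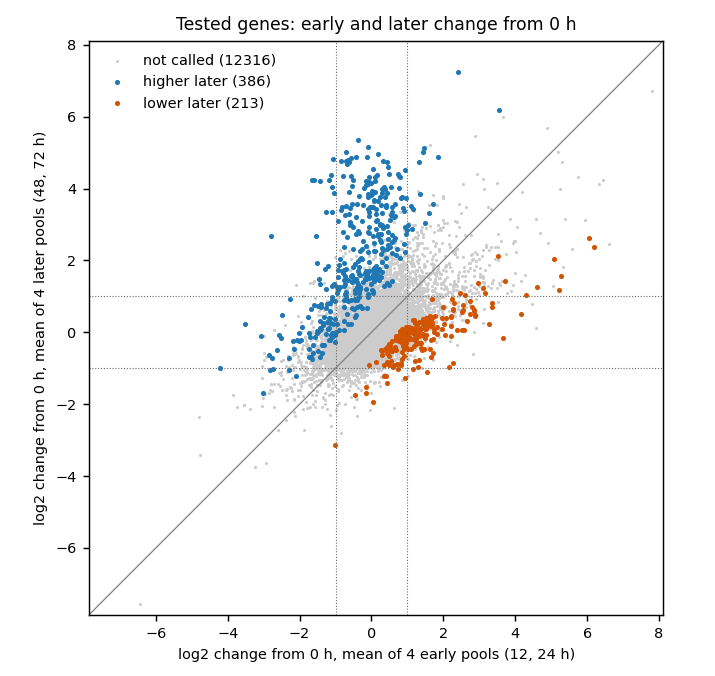
Each point is 1 of 12915 tested genes, placed by its log2 change from the 0 h livers of the same genotype in the 4 early pools (horizontal axis) and in the 4 later pools (vertical axis). The solid line marks equal change and the dotted lines 2-fold changes. The 386 genes called higher later (blue) lie mostly near 0 early and above 1 later, and the 213 called lower later (orange) lie mostly above 1 early and near 0 later.

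Of the 386 genes, 267 rose at each step from 12 to 72 h in control and 223 in LKO. Of the 213 genes, 166 fell at each step in control and 79 in LKO. A steady course in both genotypes was less frequent. The level rose at each step from 12 to 24, 48 and 72 h in both genotypes for 165 of the 386 genes, and fell at each step in both for 65 of the 213. Among all tested genes these shares were 3.47% and 2.51%.

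Genes of G2 and mitosis had the largest share of called members among the 35 lists (90.3%). Of 72 tested members 65 rose and none fell, and 71 had a positive log2 fold change, with a median of 4.23, or 4.05 when the 3 members with 0 counts in all 4 early pools are set at the bound that 3 counts per library allow. Their median change from 0 h was −0.54, 0.33, 3.67 and 4.58 in control and −0.63, −0.05, 2.79 and 3.69 in LKO at 12, 24, 48 and 72 h, and 0.82 and 0.91 at 96 h. Without both pools at 72 h 10 members were called, and without any single pool 45 to 66. With at least 10 counts required in every library 8 were called, since most members had fewer in at least 1 early pool.

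The promoters of cell cycle genes often carry a CCAAT box and a cell cycle homology region (CHR), through which the DREAM complex represses them in resting cells and B-MYB and FOXM1 activate them in G2. The genes with the smallest p among those holding both letters are shown, a choice apart from the naming rule, since they carry the largest group of the comparison. Each sequence is the 150 bases before a RefSeq start on GRCm38.p6, written in the direction of the gene, and capitals mark CCAAT and TTTGAA on either strand.
Mki67, chr7:135716380-135716529, minus strand: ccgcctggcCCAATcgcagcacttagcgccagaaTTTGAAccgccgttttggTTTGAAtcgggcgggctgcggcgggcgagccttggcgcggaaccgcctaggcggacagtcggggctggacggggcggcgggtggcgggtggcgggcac
Prc1, chr7:80294326-80294475, plus strand: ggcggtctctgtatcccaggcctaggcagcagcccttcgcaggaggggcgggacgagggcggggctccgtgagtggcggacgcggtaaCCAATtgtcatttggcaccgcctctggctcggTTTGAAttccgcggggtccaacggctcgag
Ube2c, chr2:164769779-164769928, plus strand: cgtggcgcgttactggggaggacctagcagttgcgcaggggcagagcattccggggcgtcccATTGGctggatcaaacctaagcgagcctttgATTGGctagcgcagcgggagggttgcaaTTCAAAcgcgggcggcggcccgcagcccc
Cdk1, chr10:69352913-69353062, minus strand: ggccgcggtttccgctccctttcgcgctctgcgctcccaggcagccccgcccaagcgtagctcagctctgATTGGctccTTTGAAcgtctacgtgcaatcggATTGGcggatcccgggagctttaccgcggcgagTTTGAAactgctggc
Ube2c, which feeds mitotic proteins to the proteasome, had a log2 fold change of 4.25 (SE 0.42). In Prc1 the CCAAT box begins 62 and the CHR 30 bases before the start, and in Ube2c the nearer CCAAT box begins 57 and the CHR 29 bases before it. Over the 250 bases before each start, on both strands, both motifs were present in 20 of 64 windows of 61 matched G2 and mitosis genes (31.2%), against 522 of 13130 windows (3.98%) of 10299 tested genes with a promoter in the table. CCAAT, with or without the other motif, was in 70.3% of the windows of the group and 35.1% of all, and TTTGAA in 37.5% and 11.0%. The motifs can share a base where they meet, and a match is a description of sequence.

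Mki67, the antigen of cycling cells, was at 0.594, 0.912, 35.7 and 53.2 CPM in control and 0.236, 0.993, 30.9 and 63.1 CPM in LKO at 12, 24, 48 and 72 h. All early pools lay under 1 and all later ones above 30, and livers at 0 h held 0.773 to 3.56 CPM. The mean was 0.684 ± 0.345 CPM (SD, n = 4) early and 45.7 ± 15.0 CPM later, a log2 fold change of 6.05 (SE 0.43, adjusted p = 0.000316 by edgeR's quasi-likelihood test). Mki67 lay on chromosome 7 of GRCm38 from 135689784 to 135716361, minus strand.

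Prc1, which bundles microtubules of the spindle midzone, stood at 0.264, 0.608, 17.8 and 24.1 CPM in control and 0.295, 0.261, 9.88 and 22.5 CPM in LKO (log2 fold change 5.68, SE 0.41, adjusted p = 0.000316). Cdk1, the kinase that drives entry into mitosis, stood at 0.396, 1.95, 17.9 and 45.2 CPM in control and 0.826, 0.627, 16.2 and 28.8 CPM in LKO (log2 fold change 4.83, SE 0.51, adjusted p = 0.00204). Top2a, which untangles replicated DNA, stood at 0.264, 1.46, 25.7 and 50.9 CPM in control and 0.354, 1.72, 28.0 and 53.7 CPM in LKO (log2 fold change 5.36, SE 0.57, adjusted p = 0.00204). In each of these genes the early and later pools did not overlap, and 72 h was the highest of the 4 times in both genotypes.

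The cyclins of this stage behaved alike. Ccna2, which acts in S and G2, was at 0.660, 1.28, 10.8 and 21.1 CPM in control and 0.236, 0.940, 9.88 and 22.0 CPM in LKO (log2 fold change 4.37, SE 0.49). Ccnb1, the partner of CDK1, was at or under 0.531 CPM in the early pools and at 9.71 and 25.1 CPM in control and 6.25 and 17.8 CPM in LKO at 48 and 72 h. By 96 h Ccnb1 was at 0.774 and 0.711 CPM. Birc5, an inhibitor of apoptosis in the chromosomal passenger complex, reached 25.0 CPM in control and 22.4 CPM in LKO at 72 h from at most 0.608 CPM early (log2 fold change 5.76, SE 0.60). Aurkb, the kinase of that complex, had at most 0.177 CPM early, near or below the level of 3 counts, and 5.67 to 12.5 CPM later. The fitted fold changes of Aurkb, and of Racgap1 (at most 0.295 CPM early, 5.91 to 18.9 CPM later, a GTPase activator of cytokinesis), depend on the prior count. In all, 24 of the 386 higher genes had 3 counts or fewer in each early pool.

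Of 43 tested DNA replication genes 18 rose and none fell, all 43 had a positive log2 fold change, and the median was 1.54. Their median change from 0 h was −0.41, 0.89, 1.39 and 2.32 in control and −0.48, 0.39, 1.27 and 1.68 in LKO, so that the value at 24 h was above that at 12 h in both genotypes. The number called was 3 without control at 72 h, 4 without LKO at 72 h, 7 without either pool at 12 h and 8 without LKO at 48 h. It was 0 without both pools at 72 h, 4 without both at 12 h, 12 without both at 48 h and 35 without both at 24 h.

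E2F factors bind the promoters of many such genes. A pair of members that rose, chosen by the same rule for sequences, is shown with the E2F letters TTTGGCGC and TTTCCCGC, on either strand, in capitals, in the same window and build.
Mcm6, chr1:128359706-128359855, minus strand: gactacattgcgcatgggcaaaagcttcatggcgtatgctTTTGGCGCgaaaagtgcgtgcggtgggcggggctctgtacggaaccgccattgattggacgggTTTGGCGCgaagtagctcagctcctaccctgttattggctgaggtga
Cdc6, chr11:98908001-98908150, plus strand: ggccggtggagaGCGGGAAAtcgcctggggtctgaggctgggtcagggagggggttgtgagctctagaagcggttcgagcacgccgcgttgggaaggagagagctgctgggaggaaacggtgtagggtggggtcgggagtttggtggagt
These letters were in 6 of 39 windows of replication genes (15.4%), in 3 of 22 of ribosome biogenesis genes (13.6%), a group with falls, and in 2.38% of all windows.

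Mcm6, a subunit of the replicative helicase, was at 6.73, 19.2, 32.8 and 60.2 CPM in control and 4.19, 7.31, 44.3 and 49.7 CPM in LKO (log2 fold change 2.43, SE 0.41, adjusted p = 0.0143). Mcm5, of the same helicase, was at 2.05, 8.15, 23.2 and 51.6 CPM in control and 0.590, 5.49, 24.6 and 40.0 CPM in LKO (log2 fold change 3.14, SE 0.62, adjusted p = 0.0259). For both, each later pool was above each early pool, and 24 h was above 12 h. Uhrf1, which guides DNA methylation onto new strands, was at 0.264, 2.80, 18.5 and 30.1 CPM in control and 0.767, 1.15, 32.5 and 40.0 CPM in LKO (log2 fold change 4.58, SE 0.57). Pole, the leading-strand polymerase, and Chaf1a, a histone chaperone at forks, rose by log2 fold changes of 2.69 (SE 0.33) and 2.67 (SE 0.43).

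Of 16 tested G1 cyclins, kinases and inhibitors 15 had a positive log2 fold change, with a median of 0.76, and 2 rose: Cdkn2c, an inhibitor of CDK4 and CDK6 (log2 fold change 2.31, SE 0.31, adjusted p = 0.00541), and Cdkn3, a phosphatase of CDKs (5.01, SE 0.81, adjusted p = 0.0119). Ccnd1, the D-type cyclin of G1, was at 18.7, 72.6, 43.6 and 148 CPM in control and 27.7, 40.7, 49.0 and 42.3 CPM in LKO, so that the phases overlapped (log2 fold change 0.74, SE 0.46, adjusted p = 0.332). Of 10 E2F and partner genes 2 activators rose and 1 repressor fell. The number called was 1 without control at 12 h, LKO at 12 h, control at 72 h, LKO at 48 h or LKO at 72 h. It was also 1 with scaling by library size alone. E2f1 was at 1.98, 2.74, 7.99 and 15.9 CPM in control and 2.12, 2.98, 11.5 and 17.9 CPM in LKO (log2 fold change 2.43, SE 0.32, adjusted p = 0.00443). E2f2 had a log2 fold change of 2.31 (SE 0.57, adjusted p = 0.0483), and E2f4 was at 52.9, 39.2, 27.8 and 23.9 CPM in control and 45.4, 36, 22.7 and 20.3 CPM in LKO (log2 fold change −0.87, SE 0.20, adjusted p = 0.0388). None of 13 tubulins and actins passed, and Actg1, a cytoplasmic actin, ranged from 334 to 1377 CPM early and 142 to 279 CPM later (adjusted p = 0.0612).

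Of 22 tested markers of recruited macrophages 11 rose and none fell, with a median log2 fold change of 1.44. Their summed level was 714 to 876 CPM early, 964 to 2319 CPM later and 540 to 822 CPM at 0 h. Gpnmb, a glycoprotein of lipid-laden, debris-clearing macrophages, was at 1.32, 1.95, 6.17 and 107 CPM in control and 0.413, 0.470, 7.78 and 119 CPM in LKO. Its rise from 48 to 72 h was larger than that from 24 to 48 h in CPM, and the difference between phases (log2 fold change 5.99, SE 1.11, adjusted p = 0.0204) did not pass without control at 12 h, LKO at 12 h or control at 72 h. Trem2, a lipid-sensing receptor of the same cells, was at 0.264, 1.34, 3.90 and 22.4 CPM in control and 0.472, 0.993, 5.00 and 16.7 CPM in LKO (log2 fold change 3.94, SE 0.70, adjusted p = 0.0171). Mmp12, a macrophage elastase, and Cx3cr1, the fractalkine receptor of monocytes, had log2 fold changes of 2.89 (SE 0.53) and 3.45 (SE 0.61). Without control at 12 h 0 of these markers were called, without LKO at 12 h 1, without control at 72 h 1, without LKO at 72 h 3, without LKO at 48 h 6 and without both pools at 72 h 0.

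Of 8 markers of Kupffer cells, the resident macrophages of the liver, 3 rose. Clec4f was at 38.3, 31.5, 60.5 and 67.1 CPM in control and 43.7, 41.6, 94.5 and 106 CPM in LKO, with 60.4 to 170 CPM at 0 h (log2 fold change 1.05, SE 0.18, adjusted p = 0.0149). All early pools thus lay below the range at 0 h and all later ones at or within it. Cd5l, which is secreted by these cells, and Folr2 had log2 fold changes of 2.07 (SE 0.50) and 1.32 (SE 0.31), and the call of Folr2 was lost whichever pool was left out. The count was 0 without control at 72 h, LKO at 48 h or LKO at 72 h, 1 without control at 24 h or LKO at 12 h, and 2 without control at 12 h or LKO at 24 h. The summed level of the 8 markers was 186 to 278 CPM early, 236 to 613 CPM later and 300 to 1136 CPM at 0 h.

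Of 5 tested lymphocyte markers Cd3e and Cd4 rose (log2 fold changes 3.43, SE 0.79, and 2.13, SE 0.51), at levels of at most 3.98 CPM. Without single pools 0 or 1 of the 2 was called, Cd4 was lost whichever pool was left out, and the stranded column called 0. Another 11 markers of T, B and NK cells were too low to test. None of 9 tested neutrophil markers passed, none of 23 sinusoidal endothelial markers and not the 1 tested erythroid marker, Alas2. The endothelial markers summed to 465 to 681 CPM early and 591 to 643 CPM later. The neutrophil markers summed to 23.6, 18.2, 41.6 and 35.1 CPM in control and 25.3, 39.8, 11.9 and 11.1 CPM in LKO at 12, 24, 48 and 72 h, so that the later pools were the higher ones in control and the lower ones in LKO. Their median log2 fold change was 0.80 in control and −1.94 in LKO, and the difference had an unadjusted p under 0.05 for 5 of 9 members, none of which passed the adjustment. The erythroid markers summed to 6.63 to 12.2 CPM early and 6.93 to 14.6 CPM later. Of these 8 markers 6 had 0 counts in all 8 pools, so the sum was nearly that of Alas2 alone and does not measure erythroid content. The part of cell number in these results was not tested.

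**Figure D2:**
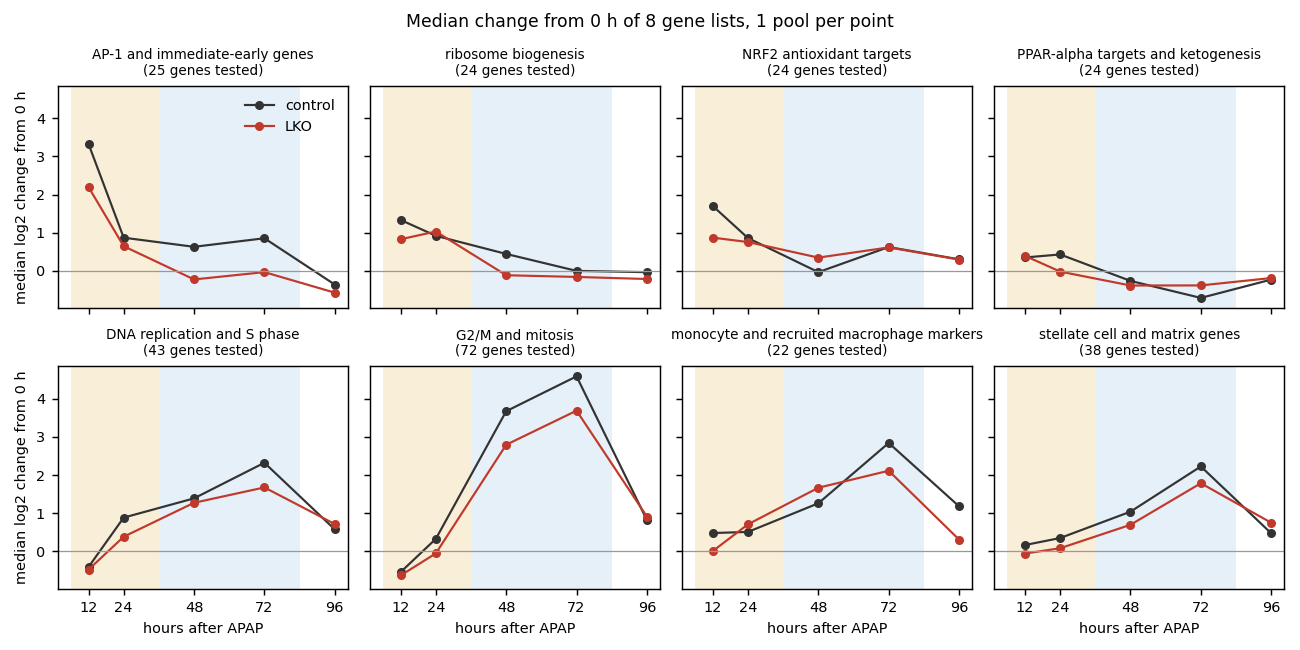
Median log2 change from 0 h (vertical axis) of the tested members of 8 gene lists against hours after APAP, with 1 pool per point, control in black and LKO in red; the early phase is shaded tan and the later phase blue. The medians of the 4 upper lists are highest at 12 or 24 h, and those of the 4 lower lists are highest at 72 h in both genotypes.

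Of 38 tested stellate cell and matrix genes 15 rose and none fell, 33 had a positive and 5 a negative log2 fold change, and the median was 1.43. Their summed level did not follow the phases: it was 2712, 2076, 3532 and 4318 CPM in control and 3929, 2076, 2549 and 2981 CPM in LKO at 12, 24, 48 and 72 h, with LKO highest at 12 h. Col1a1, a chain of type I collagen, was at 2.44, 3.53, 29.5 and 193 CPM in control and 1.06, 2.04, 20.7 and 73.0 CPM in LKO, against 4.01 to 10.3 CPM at 0 h. The early pools lay below and the later pools above every liver at 0 h (log2 fold change 5.07, SE 0.65, adjusted p = 0.0041). Col1a2, the other chain, had a log2 fold change of 3.66 (SE 0.53), Col5a2, a fibril-forming collagen, 3.01 (SE 0.42), and Loxl2, which cross-links collagen, 2.19 (SE 0.30). Acta2, the smooth muscle actin of activated stellate cells, was at 0.792, 9.73, 33.5 and 69.2 CPM in control and 2.36, 0.522, 9.94 and 16.0 CPM in LKO (log2 fold change 3.23, SE 0.68, adjusted p = 0.0318). Timp1, an inhibitor of matrix proteases, was at 0.330, 1.95, 5.21 and 11.4 CPM in control and 0.059, 0.575, 1.93 and 1.26 CPM in LKO and missed the threshold (adjusted p = 0.0545). Plau, the urokinase that releases matrix-bound HGF, was the 1 of 12 genes of the HGF and plasminogen group that passed (log2 fold change 2.30, SE 0.53, adjusted p = 0.0413). That was 8.33% of this group, against 4.64% of all tested genes. Without single pools 5 to 20 matrix genes were called, with 5 without LKO at 12 h or LKO at 72 h, and 7 without control at 12 h or control at 72 h. Without both pools at 72 h 3 were called and without both at 12 h 2.

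Of 24 targets of NRF2, the transcription factor that answers electrophiles such as the APAP metabolite, 3 fell and none rose. The log2 fold change was negative for 18 and positive for 6, up to 2.51 for Gstm3 (a glutathione transferase, adjusted p = 0.0952, named after its value was seen), and the median was −0.66. The summed level was 10750, 5655, 3084 and 5362 CPM in control and 6346, 5672, 4378 and 5797 CPM in LKO at 12, 24, 48 and 72 h, so that the phases overlapped in LKO. The number called was 1 without control at 72 h, LKO at 48 h or LKO at 72 h, 2 without either pool at 12 h, 5 without control at 24 h or control at 48 h, and 0 without both pools at 72 h. Srxn1 was at 1198, 591, 126 and 58.9 CPM in control and 656, 543, 69.5 and 56.8 CPM in LKO, against 27.6 to 43.6 CPM at 0 h. It fell at each step in both genotypes (log2 fold change −3.25, SE 0.33, adjusted p = 0.00204). Txnrd1, thioredoxin reductase, was at 914, 325, 125 and 116 CPM in control and 515, 304, 123 and 147 CPM in LKO and was within the 0 h range of 112 to 180 CPM in the later pools (log2 fold change −1.98, SE 0.35, adjusted p = 0.0171). Its promoter is shown because it holds an antioxidant response element, the site of NRF2, in the letters TGACNNNGC, here on the reverse strand in capitals. These letters can also hold an AP-1 site.
Txnrd1, chr10:82859056-82859205, plus strand: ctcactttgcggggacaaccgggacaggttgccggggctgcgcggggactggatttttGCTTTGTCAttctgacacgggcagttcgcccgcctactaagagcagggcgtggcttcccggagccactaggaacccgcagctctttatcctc
The letters were in 7 of 25 windows of the NRF2 group (28.0%), 7 of 26 of the AP-1 and immediate-early genes (26.9%), 21.9% of those of G2 and mitosis and 11.8% of all windows, so that they do not set the NRF2 group apart. Pgd, of the pentose phosphate pathway that supplies NADPH, fell by 0.76 on the log2 scale (SE 0.18). Nqo1, a quinone reductase, was at 16.9, 16.9, 4.71 and 7.40 CPM in control and 9.97, 35.4, 8.97 and 12.6 CPM in LKO (adjusted p = 0.0733). Hmox1, which degrades heme, was at 721, 69.5, 89.5 and 132 CPM in control and 209, 45.5, 24.0 and 83.8 CPM in LKO, so that the values at 24 h overlapped those of the later pools (adjusted p = 0.203).

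All 25 AP-1 and immediate-early genes had a negative log2 fold change, with a median of −1.48, and 4 passed the test. Maff, a small MAF protein, was at 426, 44.9, 28.9 and 14.7 CPM in control and 211, 17.4, 3.86 and 6.72 CPM in LKO (log2 fold change −3.93, SE 0.87, adjusted p = 0.037). Its level at 12 h was several times that at 24 h, and LKO at 24 h was below control at 48 h. Fosl1, an AP-1 subunit, and Dusp5 and Dusp8, phosphatases of MAP kinases, had log2 fold changes of −3.65 (SE 0.83), −3.69 (SE 0.79) and −2.30 (SE 0.56). Atf3, a stress-induced repressor, was at 191, 14.5, 17.4 and 13.7 CPM in control and 241, 8.15, 4.20 and 7.54 CPM in LKO and did not pass (adjusted p = 0.0781). Myc was at 140, 31.4, 33.4 and 13.9 CPM in control and 68.4, 21.0, 12.4 and 8.26 CPM in LKO (adjusted p = 0.0632). In all 4 called genes the values of the phases overlapped. The count was 0 without either pool at 12 h, without either at 72 h or without LKO at 48 h, 18 without control at 24 h, 21 without both pools at 24 h, and 17 by DESeq2.

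Few members of the other stress groups passed, at shares of 8.33% of the integrated stress response, 6.25% of the heat shock and 0% of the p53 genes against 4.64% of all tested genes. The counts of 2, 1 and 0 were 6, 6 and 3 without control at 24 h, 10, 11 and 8 without both pools at 24 h, and 0 in each group without control at 12 h or LKO at 72 h. Of 24 genes of the integrated stress response Atf4, its main transcription factor (log2 fold change −1.09, SE 0.21, adjusted p = 0.0233), and Ddit3 (CHOP, −2.12, SE 0.51, adjusted p = 0.0474) fell. In that group 8 log2 fold changes were positive and 16 negative, with a median of 0.04 in control and −0.88 in LKO. Of 16 cytosolic heat shock genes Hspb1 (HSP27) fell, from 55.4 to 251 CPM early to 13.7 to 28.6 CPM later (log2 fold change −2.37, SE 0.48, adjusted p = 0.0288). Hspa1b, an inducible HSP70, was at 103, 9.37, 8.95 and 16.1 CPM in control and 488, 17.2, 8.52 and 32.2 CPM in LKO (adjusted p = 0.117). None of 20 p53 targets passed. Cdkn1a, the p21 inhibitor, was at 371, 246, 204 and 48.7 CPM in control and 201, 104, 35.3 and 11.4 CPM in LKO, against 1.22 to 32.8 CPM at 0 h, so that LKO at 72 h lay inside and the other pools above that range (adjusted p = 0.0727). None of 20 hypoxia and glycolysis genes passed. Among them Hilpda, a hypoxia-induced lipid droplet protein, was at 221, 272, 140 and 6.80 CPM in control and 17.8, 46.6, 3.29 and 1.74 CPM in LKO (adjusted p = 0.0891). Mt1, a metallothionein, was at 3673, 3499, 2180 and 1269 CPM in control and 2475, 1933, 1234 and 236 CPM in LKO (adjusted p = 0.112).

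Ribosome biogenesis had the largest share of called members among the lists with falls in the main fit (54.2%). The 25 AP-1 and immediate-early genes had a larger share in some alternatives. These were without control at 24 h (18 called, against 15 of ribosome biogenesis), without both pools at 24 h (21 against 16) and with no filter beyond 1 count (20 against 18). Of 24 tested genes 13 fell and none rose, all 24 had a negative log2 fold change, and the median was −1.03. Nop2, an rRNA methyltransferase, was at 76.1, 51.5, 28.2 and 17.3 CPM in control and 53.5, 50.4, 17.4 and 16.2 CPM in LKO, against 20.8 to 28.4 CPM at 0 h (log2 fold change −1.55, SE 0.23, adjusted p = 0.00804). Every early pool was above every 0 h liver. Rrp12, which exports pre-ribosomes, Ddx21, an RNA helicase of the nucleolus, and Nolc1, a nucleolar chaperone, had log2 fold changes of −1.87 (SE 0.30), −1.38 (SE 0.23) and −1.10 (SE 0.17). The median change of the group from 0 h was 1.33 and 0.92 in control and 0.83 and 1.03 in LKO early, and between −0.16 and 0.45 later. Without single pools 1 to 15 genes of the group were called, the lowest without LKO at 72 h, and without both pools at 72 h none.

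Of 31 proteasome genes 30 had a negative log2 fold change with a median of −0.46. Psmd3 and Psmd4, subunits of the regulatory particle, fell (log2 fold changes −0.996, SE 0.24, adjusted p = 0.0461, and −0.82, SE 0.19, adjusted p = 0.0395). These 2 calls were 6.45% of the group, near the 4.64% of all tested genes. Scaled by library size alone, or with at least 10 counts required in every library, neither passed. The number of proteasome genes called was 0 without control at 12 h, LKO at 12 h, control at 72 h, LKO at 48 h or LKO at 72 h. It was 1 without LKO at 24 h and 3 without control at 24 h or control at 48 h.

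Of 24 targets of PPARα, the fatty acid sensor that drives oxidation and ketogenesis in fasting, 6 fell and none rose. All 24 had a negative log2 fold change, with a median of −0.74. Cyp4a10, which hydroxylates fatty acids at the omega end, was at 3240, 1031, 272 and 58.9 CPM in control and 3438, 827, 153 and 102 CPM in LKO (log2 fold change −3.88, SE 0.64, adjusted p = 0.014). Cyp4a14, its close homologue, was at 2711, 1595, 237 and 81.2 CPM in control and 3146, 1039, 299 and 65.5 CPM in LKO (log2 fold change −3.64, SE 0.59, adjusted p = 0.0126). Both fell at each step in each genotype. At 0 h these genes ranged over 14.0 to 830 and 0.687 to 662 CPM between single livers, so that the later pools lay inside the range of undosed livers, and the early pools above it except LKO at 24 h for Cyp4a10. Acot1 and Acot2, thioesterases that release fatty acids from CoA, and Ehhadh, of peroxisomal oxidation, had log2 fold changes of −2.29 (SE 0.49), −3.00 (SE 0.72) and −1.70 (SE 0.34). The Cyp4a and Acot genes belong to families of similar copies. Reads that mapped to more than 1 place were counted for no gene, so the levels of such copies may be too low. The mice fasted before dosing, and feeding after it is not given in the sources used here. Without both pools at 12 h, and without both at 72 h, 0 of the group were called, and 1 without control at 12 h, LKO at 12 h or LKO at 72 h and 2 without control at 72 h or LKO at 48 h. It was 10 without control at 48 h and 12 without both pools at 24 h.

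Among genes of hepatocyte functions few passed. The share called was 4.17% of the pericentral and of the cholesterol synthesis genes, 5.56% of the bile acid genes and 6.25% of the liver-enriched transcription factors, near the 4.64% of all tested genes. Without both pools at 24 h, where 2961 genes were called in all, 14 of 24 cholesterol synthesis genes and 9 of 16 of these transcription factors were called. None of 14 hepatocyte markers passed. Trf, which encodes transferrin, was at 10550, 13220, 20200 and 21770 CPM in control and 9134, 10510, 22740 and 16300 CPM in LKO, with no overlap of phases (log2 fold change 0.91, SE 0.23, adjusted p = 0.0587). Of 24 pericentral genes, which mark the zone where APAP is activated, Ahr rose (log2 fold change 0.80, SE 0.20, adjusted p = 0.0474), a call that was lost without any single pool. Cyp2e1, the main P450 that activates APAP, was at 4303, 1209, 445 and 2526 CPM in control and 3401, 2515, 2218 and 4349 CPM in LKO, against 4960 to 9885 CPM at 0 h, and the phases overlapped (adjusted p = 0.699). Cyp1a2, of the same zone, was at 156, 58.0, 48.3 and 405 CPM in control and 162, 182, 463 and 977 CPM in LKO (log2 fold change 1.57, SE 0.59, adjusted p = 0.134). None of 19 periportal genes passed. Cps1, of the urea cycle, ranged from 1545 to 6642 CPM early and 3324 to 5686 CPM later.

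Of 18 genes of bile acid synthesis and transport Abcb11, the bile salt export pump, rose. It was at 86.1, 102, 135 and 269 CPM in control and 72.8, 187, 435 and 597 CPM in LKO, against 401 to 602 CPM at 0 h (log2 fold change 1.55, SE 0.35, adjusted p = 0.0391). All control pools were thus below the range at 0 h. Of 24 cholesterol synthesis genes Sc5d rose (log2 fold change 1.39, SE 0.32, adjusted p = 0.0411). None of 20 lipogenesis genes passed, Fasn among them (−0.26, SE 0.34). Of 16 liver-enriched transcription factors Onecut1 fell (−1.91, SE 0.37, adjusted p = 0.0244), while 14 had a negative and 2 a positive log2 fold change. Of 18 clock genes 2 were called (11.1%, against 4.64% of all tested genes). Per3 rose (1.58, SE 0.33, adjusted p = 0.0316) and Per1 fell (−1.73, SE 0.43, adjusted p = 0.0499). Neither was called without control or LKO at 12 h, and without both pools at 12 h 0 clock genes were called. If all mice were dosed at the same hour, the 24, 48 and 72 h pools share a time of day that the 12 h pools do not. The hour of dosing is not given in the sources used here. At 24, 48 and 72 h Per3 was at 9.80, 14.4 and 35.25 CPM in control and 12.4, 31.6 and 58.4 CPM in LKO. Per1 was at 109, 90.8 and 28.8 CPM in control and 79.0, 31.1 and 40.35 CPM in LKO. The part of time of day was not tested. Of 15 genes of the growth hormone and IGF1 axis 2 were called (13.3%). Igfbp3, a carrier of IGF1, rose (0.96, SE 0.23) and Cyp4a12b, a male-biased P450, fell (−2.14, SE 0.42).

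Of 28 acute-phase genes, most of them made by hepatocytes in inflammation, 2 fell (7.14%, against 4.64% of all tested genes). The log2 fold change was positive for 11 and negative for 17 of the group, with a median of 0.17 in control and −0.47 in LKO. In the acute-phase group the number called depended on the pools. The count was 0 without control at 12 h, LKO at 12 h, control at 72 h, LKO at 48 h or LKO at 72 h, 1 without LKO at 24 h, 3 without control at 48 h and 7 without both pools at 24 h. Socs3, the feedback inhibitor of IL-6 signalling, was at 103, 44.1, 37.4 and 27.1 CPM in control and 82.7, 51.9, 7.78 and 4.54 CPM in LKO (log2 fold change −2.30, SE 0.53, adjusted p = 0.0406). Cd14, the endotoxin co-receptor, fell as well (−2.26, SE 0.47, adjusted p = 0.0297). Saa1, serum amyloid A, ranged from 56.4 to 931 CPM early and 33.8 to 251 CPM later. Its values ran in opposite directions in the genotypes, with log2 fold changes of 1.23 (SE 0.83) in control and −2.79 (SE 0.87, adjusted p = 0.225) in LKO. Of 20 chemokines and cytokines 2 were called (10%). Cxcl2, which draws neutrophils, fell from 6.01 to 45.1 CPM early to 0.290 to 9.31 CPM later (log2 fold change −3.27, SE 0.59, adjusted p = 0.0184). Ccl3 rose (3.25, SE 0.65, adjusted p = 0.0272) at levels of at most 2.47 CPM. None of 24 interferon-stimulated genes passed, and 21 of them had a positive log2 fold change, with a median of 0.49. Without control at 24 h 5 of them were called and without both pools at 24 h 8. Of 13 cholangiocyte, progenitor and fetal genes 2 were called (15.4%). Afp, the fetal serum protein, rose from 1.06 to 7.36 CPM early to 10.6 to 49.2 CPM later (log2 fold change 2.55, SE 0.54, adjusted p = 0.0326). Krt8, an epithelial keratin, fell (−1.58, SE 0.39, adjusted p = 0.0483). Krt8 was at 4209, 2876, 1644 and 635 CPM in control and 674, 1819, 514 and 327 CPM in LKO. Other genes that the naming rule took from lists with no called member are given here by log2 fold change, and their adjusted p-values lay between 0.056 and 0.273. They were Aen (p53 target, −1.17), Slc2a1 and Pkm (glucose transporter and pyruvate kinase, −1.86 and 1.04), Ifi27l2a and Oasl1 (interferon-stimulated, 2.37 and −1.02) and Tubb6 (a tubulin, −0.81). The others were Aldh1b1 and Hsd17b6 (periportal, 1.09 and 1.75), Pnpla3 and Thrsp (lipogenesis, 1.28 and 1.48), Eng and Oit3 (sinusoidal endothelium, 0.51 and 0.54), Trem1 (neutrophils, −1.22) and Ttr (transthyretin of hepatocytes, 0.78). Cxcl1, a neutrophil chemokine of the panel, was at 192, 232, 106 and 106 CPM in control and 25.7, 130, 40.6 and 26.3 CPM in LKO (adjusted p = 0.13). Igf2 was too low to test, at 0.104 to 1.03 CPM early and 0.227 to 0.6 CPM later.

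**Figure D3:**
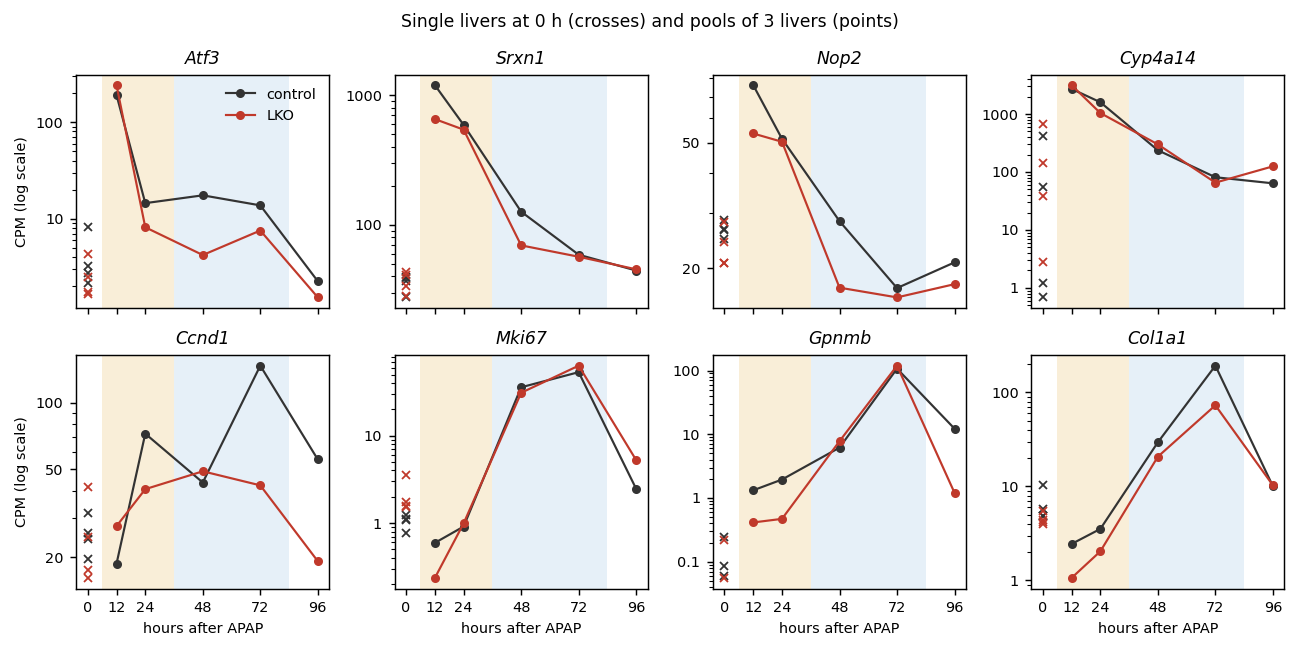
CPM on a log scale against hours after APAP for 8 genes, with pools of 3 livers as points joined by lines (control black, LKO red) and the single livers at 0 h as crosses; livers without a read of Gpnmb are not drawn, and the early and later phases are shaded tan and blue. Srxn1, Nop2 and Cyp4a14 stand highest at 12 h and Mki67, Gpnmb and Col1a1 at 72 h, whereas Ccnd1 peaks at 72 h in control only.

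Among genes with a mean of at least 5 CPM over the 8 pools and no overlap of phases, the 12 largest rises were mostly mitotic. They included 2810417H13Rik, which binds PCNA at forks, at most 0.236 CPM early and 4.05 to 18.0 CPM later, and Esco2, which locks cohesin onto replicated DNA, at most 0.679 CPM early and 4.86 to 17.5 CPM later. Tpx2, a spindle assembly factor (log2 fold change 5.68, SE 0.50), and Ckap2l, a spindle protein with at most 0.243 CPM early and 4.88 to 19.1 CPM later, were others. Gpnmb and Col1a1 were the 2 of 12 outside the cell cycle.

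The 12 largest falls included enzymes of lipid metabolism. Retsat, a retinol saturase, was at 2468, 1369, 634 and 150 CPM in control and 2620, 1122, 327 and 208 CPM in LKO, against 403 to 812 CPM at 0 h (log2 fold change −2.55, SE 0.49, adjusted p = 0.0238). Acot3, of the family named above, and Slc22a4, a transporter of ergothioneine, had log2 fold changes of −2.36 (SE 0.41) and −2.22 (SE 0.44). Lor, loricrin of the cornified skin envelope, stood at 10.0, 5.6, 1.26 and 1.53 CPM in control and 18.4, 4.44, 0.511 and 0.483 CPM in LKO (log2 fold change −3.43, SE 0.61, adjusted p = 0.0172). Btbd19 had a log2 fold change of −2.33 (SE 0.51).

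**Figure D4:**
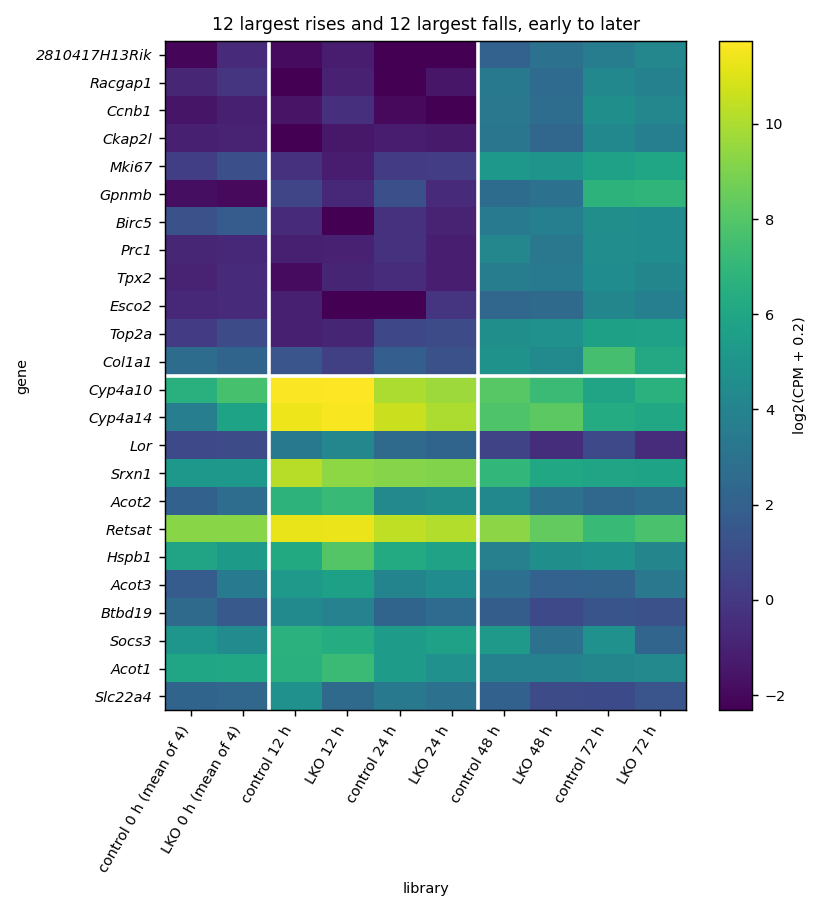
Colour gives log2(CPM + 0.2) of the 12 genes with the largest rise and the 12 with the largest fall (rows) in the means of 4 livers at 0 h and in the 8 pools (columns), with white lines between 0 h, early and later. The upper rows are dark at 0 h and early and light later, and the lower rows are mostly lightest at 12 h.

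Within each genotype the same contrast has 2 pools against 2, and few genes passed. In control pools 5 of 13580 tested genes (0.0368%) were called, Aurkb, Racgap1, D17H6S56E-5, Prc1 and Mki67, and in LKO pools 4 (0.0295%), D17H6S56E-5, Kntc1, Prc1 and Mki67. All were higher later, and all 5 and all 4 were among the 599. D17H6S56E-5, singled out after its values were seen, stood at 3.37, 4.08, 127 and 103 CPM in control and 2.89, 2.87, 35.1 and 46.3 CPM in LKO (log2 fold change 4.39, SE 0.31). Kntc1, a kinetochore protein named for the same reason, stood at 0.330, 0.183, 4.50 and 7.13 CPM in control and 0, 0.104, 7.44 and 11.8 CPM in LKO.

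The difference between genotypes in the change from early to later was tested in the same fit, and 0 genes (0%) were called by edgeR. There were 310 genes at an unadjusted p under 0.05, and DESeq2 called 0 as well. For Mki67 the LKO effect minus the control effect was 0.34 on the log2 scale, with a 95% interval from −1.54 to 2.21. For Srxn1 it was −0.02 (−1.50 to 1.46), for Nop2 −0.18 (−1.28 to 0.91) and for Col1a1 −0.31 (−3.02 to 2.40). These intervals hold differences of more than 2-fold either way, or nearly so for Nop2, so that equal change in the genotypes is not shown. Among the named genes the smallest unadjusted p was that of Retnlg, a neutrophil resistin-like protein, at 2.51, 2.49, 3.49 and 2.80 CPM in control and 2.48, 5.49, 0.398 and 0.145 CPM in LKO (difference −4.21, interval −6.31 to −2.12, adjusted p = 1). Socs3 and Saa1 followed, with differences of −2.30 (interval −3.84 to −0.76) and −4.02 (interval −6.73 to −1.31). The changes in control and LKO correlated across tested genes with r = 0.699 and rho = 0.622, where genes are not independent replicates. All 599 called genes had the same sign in both genotypes, which the call over both genotypes favours, against 72.5% of all tested genes.

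**Figure D5:**
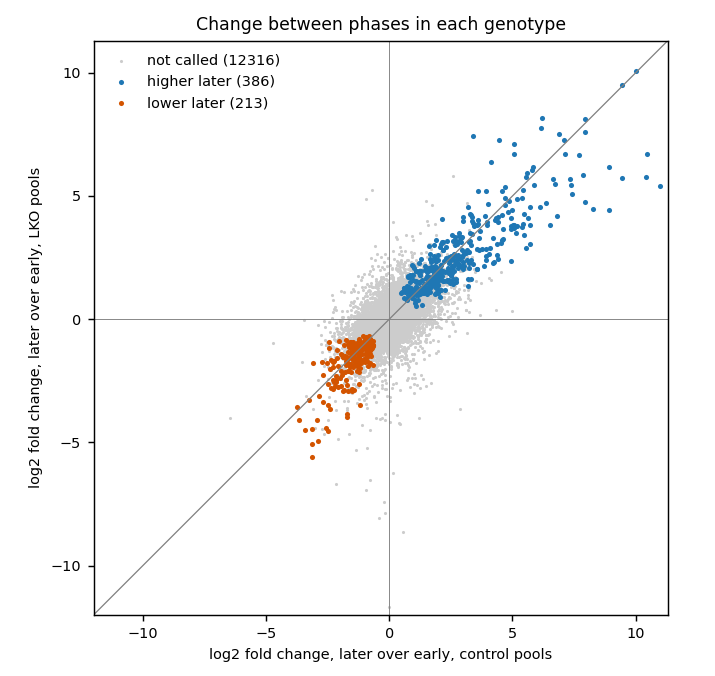
Log2 fold change of later over early pools in control (horizontal axis, 2 against 2 pools) and in LKO (vertical axis, 2 against 2 pools), 1 point per gene, with the line of equal change. The 386 genes called higher later (blue) and the 213 called lower later (orange) lie in the quadrants of equal sign.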

How the data were processed

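RNA of whole, snap-frozen livers was sequenced. Per the study's methods and the labels, the authors deposited raw counts per gene, which STAR wrote while it mapped Trimmomatic-trimmed reads onto mm10. The unstranded column was used. The 4 lines that name no gene (unmapped, multimapped, no feature, ambiguous) were dropped. Members and gene lists were chosen with earlier results of these data known. Genes passing filterByExpr were tested with edgeR 4.0.16 (R 4.3.3, limma 3.58.1) by the quasi-likelihood F-test after TMM scaling, with phase and genotype as terms (5 residual degrees of freedom). Control, LKO and their difference came from a fit with 4 groups of genotype and phase (4 residual degrees of freedom). P-values were adjusted by Benjamini and Hochberg over all tested genes, and all adjusted p-values in the report come from these fits, are two-sided and measure the spread between pools, time points included. Calls needed an adjusted p below 0.05 and a fold of 1.5. The SE was taken from the F statistic. CPM were scaled over 18 libraries of the cohort. Change from 0 h used log2 CPM with a prior count of 2, against 4 livers of the same genotype.

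Genes were named by rule. The rule took the 12 largest called rises and falls with a mean of at least 5 CPM and no overlap of phases. It then took up to 4 called genes per direction by smallest p from each of 35 lists (781 genes, 778 of them in the files), or the 2 smallest p where none was called, and a fixed panel. Names outside it are marked in the text, and 2 genes it chose are not reported here. Gene positions are GENCODE on GRCm38, and promoters are RefSeq on GRCm38.p6. The alternatives were DESeq2 1.42.0, other scalings and filters, a stranded column, no covariate, 96 h counted as later, and leaving out each pool or time. The scripts were tested on simulated data. The AAV libraries of the series were not used here, and the 0 h and 96 h libraries entered no main test.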

Additional observations from a re-analysis of the deposited data

Results flagged for a closer look

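In 8 of 228 groups of 4 pools examined over 114 named genes, 1 pool stood apart from the other 3 by Dixon's ratio of the gap to the range (critical value 0.829). Chance gives about 1 such group in 20.

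Nop2 was at 76.1 CPM in control at 12 h against 50.4 to 53.5 CPM in the other early pools (ratio 0.854), and at 28.2 CPM in control at 48 h against 16.2 to 17.4 CPM in the other later pools (ratio 0.872). Rrp12 was at 16.7 CPM in control at 48 h against 7.67 to 8.75 CPM (ratio 0.832). Control at 48 h was thus the highest later pool for both genes. Ccnd1, the G1 cyclin, was at 148 CPM in control at 72 h against 42.3 to 49.0 CPM in the other later pools (ratio 0.883). Prc1 was at 0.608 CPM in control at 24 h against 0.261 to 0.295 CPM in the other early pools (ratio 0.869), all far below the later pools. Cyp1a2 was at 58.0 CPM in control at 24 h against 156 to 182 CPM (ratio 0.865). Retnlg was at 5.48 CPM in LKO at 24 h against 2.48 to 2.51 CPM (ratio 0.984). Cd3e was at 3.98 CPM in LKO at 48 h against 0.556 to 0.8 CPM (ratio 0.829).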

How the results depend on the processing

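No paired analysis was possible because each genotype and time has 1 pool and the labels give pools no number that joins early to later ones. The count of 599 was 602 with RLE size factors, 525 by library size alone, 467 from the stranded column and 599 with no limit on the fold. It was 1866 with DESeq2 (979 higher, 887 lower), 1711 with no filter beyond 1 count, 289 with at least 10 counts in every library, 389 with no genotype covariate and 1551 with the 96 h pools counted as later. Leaving out single pools gave 111 to 1007, and leaving out both pools of a time gave 119 (12 h), 2961 (24 h), 410 (48 h) and 15 (72 h). The cause was not tested.

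The 5 calls in control became 418 with DESeq2, 45 by library size alone, where the median of all genes was 0.14 on the log2 scale, 549 with no filter, 1 with at least 10 counts and 3 from the stranded column. They became 0, 175, 11 and 0 without both pools at 12, 24, 48 and 72 h, and 0 to 41 without single pools. Such omissions leave 1 pool in an arm, whose spread is assumed to be like that of the other groups, so these counts say little about stability. The 4 calls in LKO became 560 with DESeq2, 671 with no filter, 1 with at least 10 counts, 2 from the stranded column, 0, 17, 1 and 0 without both pools at 12, 24, 48 and 72 h, and 0 to 35 without single pools. The difference between genotypes had 6 calls with no filter and 0 to 1 without single pools, the 1 being without control at 72 h.

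Over 114 named genes and all alternatives, 1754 values kept direction and side of the threshold, 482 lost the call, 107 gained it and 16 changed sign. None of the genes that changed sign was called. Cyp2e1 was 0.19 without control at 12 h, 0.00636 without control at 48 h (−0.801 to 0.19 over single pools), 0.334 and 0.176 without both pools at 12 and 48 h, and 0.234 with 96 h. Fasn was 0.00672 without control at 12 h (−0.557 to 0.00672 over single pools), 0.338 without both pools at 12 h and 0.715 with 96 h. Saa1 was 0.156 without LKO at 72 h (−1.63 to 0.156 over single pools) and 0.0716 without both at 48 h. Without both pools at 12 h, E2f8 was 0.474, Hmox1 0.452 and Hspa1b 0.326. Alas2 was −0.00113 and −0.00222 without both pools at 24 and 72 h, and Cps1 −0.291 without both at 24 h. Low counts limit the early values of mitotic genes, 12 of which had 3 counts or fewer in each early pool.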
